A study of Mus musculus with 16 samples.

Results

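Interferon-stimulated antiviral genes are described here as 43 named mouse genes, found by symbol among the 55414 genes of the count files. Each of the 43 matched 1 gene, and all 43 passed the filter on low counts in each comparison with all libraries. The cultures were chondrocyte-enriched cells from the epiphyses of newborn C57BL/6 mice of both sexes, pooled. Cells came from heterozygous Notch2tm1.1Ecan mice, in which a stop codon in *Notch2* removes the PEST domain and so stabilizes the active receptor, or from control littermates. The allele is in the germ line, so every cell type of the culture carries it. Cells were exposed for 6 h to TNFα at 50 ng/ml or to its vehicle, PBS, and 4 libraries labelled as biological replicates were made for each of the 4 combinations. The sample annotation gives serum removal for the TNFα groups alone, whereas the study's text gives it for both treatments, so that a comparison of TNFα with vehicle may include the removal of serum.

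Type I interferons bind the receptor formed by IFNAR1 and IFNAR2, and the kinases JAK1 and TYK2 then activate transcription factors, STAT2 and IRF9 among them, that bind the interferon-stimulated response element (ISRE) in the promoters of antiviral genes. Their products sense viral RNA, block its translation, degrade it, trap virions or tag proteins with ISG15, and TNFα is known to reach part of the same program through interferon regulatory factors and low amounts of interferon β.

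The promoters of 33 of the 43 genes were listed in the RefSeq promoter table (GRCm38.p6, 250 bases before to 50 bases after each start), and the other 10 genes were *Dhx58*, *Mx1*, *Mx2*, *Oas2*, *Parp9*, *Parp10*, *Parp14*, *Rtp4*, *Tor3a* and *Usp18*. The ISRE core, GAAA followed by NN and GAAA with N any base, searched on both strands with overlapping matches allowed, was present in 13 of the 33 (39.4%) and in 3.99% of all genes of the table. An NF-κB core, GGGA followed by NN and TTCC, was searched likewise and was present in 1 of the 33, *Ifit2*, and in 1.63% of all genes. The 200 bases before the RefSeq start are shown for 6 genes that carried the ISRE core, with the matches in capitals, to let the arrangement of the elements be seen beside the responses described below. They are RefSeq sequences located in GRCm39 by exact match and are written in the direction of transcription. For 5 of the 6, all but *Rsad2*, the last 12 to 30 bases lie inside the gene as GENCODE M39 annotates it, whose start is further upstream. A match on the opposite strand reads as TTTC, NN and TTTC.
*Isg15*, chr4:156285276-156285475, minus strand: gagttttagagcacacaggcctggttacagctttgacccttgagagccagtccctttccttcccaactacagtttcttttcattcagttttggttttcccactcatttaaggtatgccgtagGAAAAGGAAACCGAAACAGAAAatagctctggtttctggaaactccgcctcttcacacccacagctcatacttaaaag
*Ifit1*, chr19:34618089-34618288, plus strand: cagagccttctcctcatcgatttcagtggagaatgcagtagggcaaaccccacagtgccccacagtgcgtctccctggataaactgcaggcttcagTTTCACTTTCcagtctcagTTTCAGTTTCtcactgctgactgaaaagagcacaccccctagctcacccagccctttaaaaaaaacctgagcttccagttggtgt
*Ifit3*, chr19:34560729-34560928, plus strand: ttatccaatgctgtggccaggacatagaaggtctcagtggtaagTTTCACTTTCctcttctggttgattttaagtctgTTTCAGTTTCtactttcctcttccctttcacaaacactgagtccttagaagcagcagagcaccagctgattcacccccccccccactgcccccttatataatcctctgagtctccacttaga
*Ifit3b*, chr19:34585157-34585356, plus strand: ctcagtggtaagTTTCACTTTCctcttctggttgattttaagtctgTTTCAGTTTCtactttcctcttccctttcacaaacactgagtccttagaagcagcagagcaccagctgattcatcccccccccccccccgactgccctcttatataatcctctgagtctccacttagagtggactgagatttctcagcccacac
*Rsad2*, chr12:26506452-26506651, minus strand: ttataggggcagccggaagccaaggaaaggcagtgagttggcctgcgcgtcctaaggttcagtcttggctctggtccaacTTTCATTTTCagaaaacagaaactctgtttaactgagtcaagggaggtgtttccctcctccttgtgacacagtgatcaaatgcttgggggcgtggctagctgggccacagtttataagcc
*Ddx60*, chr8:62380921-62381120, plus strand: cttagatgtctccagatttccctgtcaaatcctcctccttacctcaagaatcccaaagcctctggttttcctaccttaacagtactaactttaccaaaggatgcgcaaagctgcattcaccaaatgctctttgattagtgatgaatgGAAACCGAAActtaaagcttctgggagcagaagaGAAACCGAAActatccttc
*Isg15* carried 3 overlapping matches in a single stretch, and *Ifit1*, *Ifit3*, *Ifit3b* and *Ddx60* carried 2 separate ones each. The printed promoters of *Ifit3* and *Ifit3b* share a run of 119 identical bases, and the counts of these near-identical genes are uncertain where reads could be assigned to either.

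The libraries held between 3439726 (Notch2tm1.1Ecan TNFα replicate 4) and 44237300 (Notch2tm1.1Ecan vehicle replicate 4) counts on genes. Levels are given as CPM, counts relative to the TMM-scaled size of the library, and a called gene is one with an adjusted p under 0.05 in edgeR's quasi-likelihood test. *Notch2* itself was at 104 to 151 CPM in control cells with vehicle, 136 to 164 in Notch2tm1.1Ecan cells with vehicle, 129 to 188 in control cells with TNFα and 209.5 to 241 in Notch2tm1.1Ecan cells with TNFα. The allele changes a codon, so the level of *Notch2* does not check the genotype. A list of 10 chondrocyte markers was abundant in every library, with a summed level of 19400 to 53212 CPM. Markers of fibroblasts and perichondrium were abundant too, with a summed level of 30254 to 41946 CPM. In Notch2tm1.1Ecan cells with TNFα they summed to 33999 to 41946 CPM, above the chondrocyte list at 19400 to 21920. In Notch2tm1.1Ecan cells with vehicle they summed to 35532 to 38196 CPM (mean 37069), against 30893 to 35782 (mean 32785) for the chondrocyte list. In control cells the chondrocyte list had the higher sum with either treatment.

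1 library stood apart in the direction of the TNFα response and touched most results on these genes. On the first principal component of all genes, which held 51.9% of the variance, control vehicle replicate 4 was at -20.6, whereas the other 7 vehicle libraries were between -67.1 and -63.7 and the TNFα libraries between 45.4 and 64.1. The lowest TNFα library, at 45.4, was control TNFα replicate 4. By chi-square per degree of freedom over all genes, other libraries were distant from their groups too. It was 10.1 to 14.8 between control vehicle replicate 4 and its group, and 10.9 to 12.8 for Notch2tm1.1Ecan vehicle replicate 1. In control vehicle replicate 4, 42 of the 43 antiviral genes were above every other vehicle library, the exception being *Samhd1*, and 43 of 43 were below every TNFα library. Their summed level was 2246 CPM there, against 852 to 881 in the other control vehicle libraries and 891 to 979.7 in the Notch2tm1.1Ecan vehicle libraries. With TNFα the sum was 6303 to 7431 CPM in control and 6628 to 7655 in Notch2tm1.1Ecan cells.

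The displacement can be read gene by gene as a percentage of the way from the mean of control vehicle replicates 1 to 3 to the mean of control TNFα replicates 1 to 3. Control vehicle replicate 4 lay at a median of 19.9% of this way over the 43 genes (from 9.85% for *Mx1* to 55.5% for *Samhd1*, which hardly responds). Genes with a mean of at least 5 CPM that were called with TNFα in the Notch2tm1.1Ecan libraries were read likewise. Over 315 such genes raised at least 4-fold the median was 15.4%, and over 408 lowered at least 2-fold it was 15.8%. The antiviral genes were not taken out of the raised genes, and none is among the lowered genes. Control TNFα replicate 4 lay at a median of 80.3% for the antiviral genes, 81.3% for the raised and 78.3% for the lowered genes. The displacement was therefore shared with TNFα-responsive genes in both directions, including 12 NF-κB targets that summed to 1118 CPM in control vehicle replicate 4, 232 to 239.7 in the other control vehicle libraries and 5257 to 6556 with TNFα in control cells. Macrophage markers had a summed level of 71.4 CPM in that library and 73.8 to 77.9 in the other control vehicle libraries. With TNFα this sum was 85.7 to 100.2 CPM in control cells, a difference too small for it to show a displacement of that size. The TNFα responses in control cells are given with and without control vehicle replicate 4, and the calls between genotypes with and without the replicate 4 control library of that treatment.

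**Figure D1:**
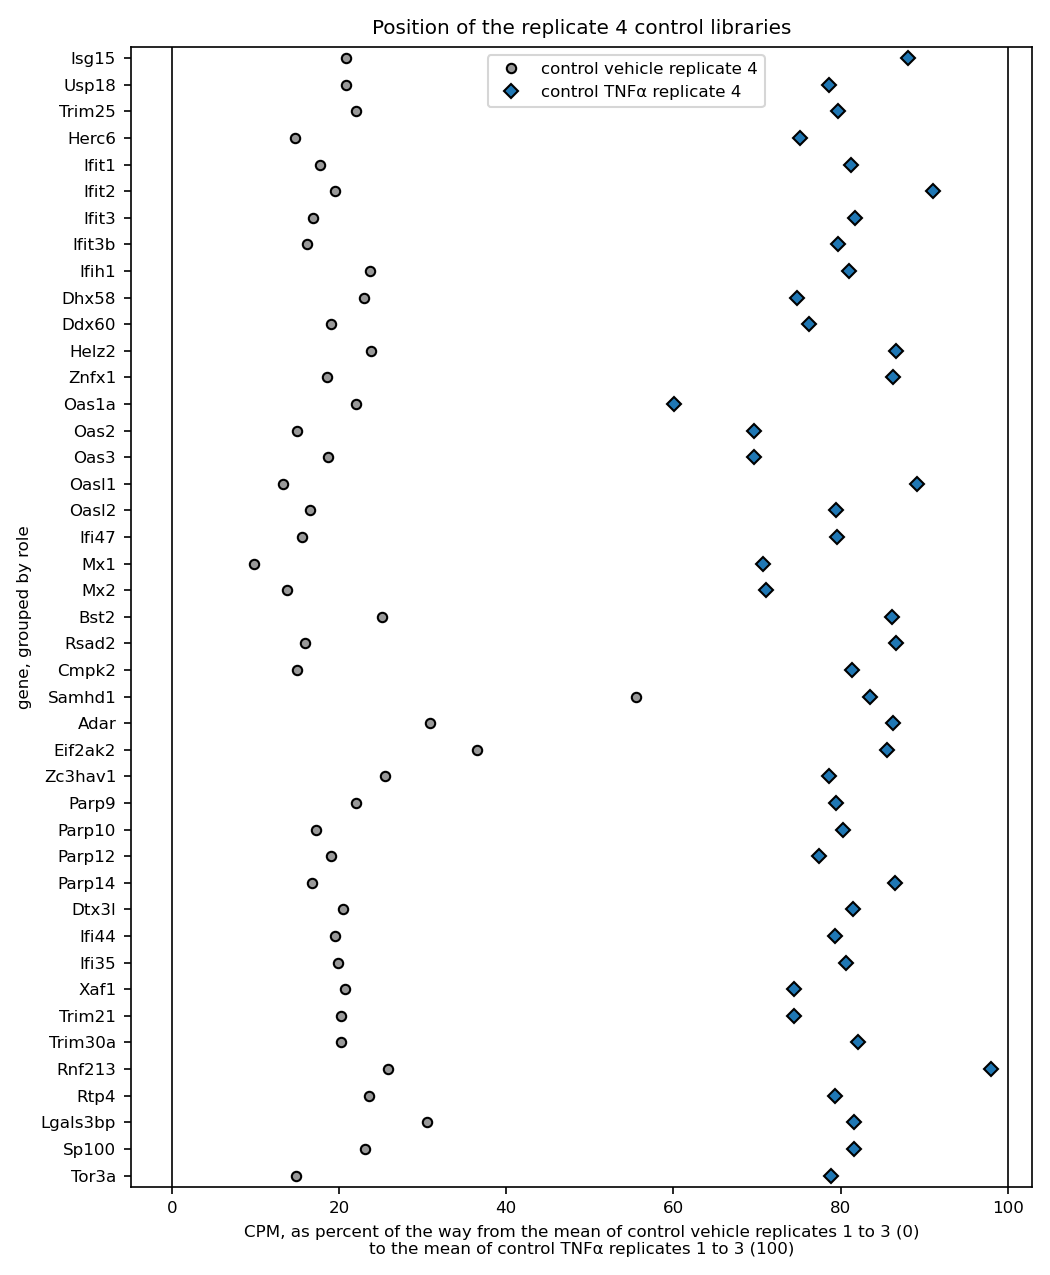
Level of each antiviral gene in control vehicle replicate 4 (circles) and control TNFα replicate 4 (diamonds), as a percentage of the way between the means of replicates 1 to 3 of control vehicle (0) and control TNFα (100). The circles lie at a median of 19.9% and the diamonds at a median of 80.3%, and no circle reaches its diamond.

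TNFα raised the whole set in both genotypes. In control cells 43 of 43 genes were called higher, where 23.3% of the 19338 genes tested were, with a median log2 fold change of 3.43 against 0.04 over all genes tested. In Notch2tm1.1Ecan cells 43 of 43 were called higher, where 22.6% of 19633 genes were, with a median of 4.57 against 0.03. The rise was at least 2-fold for 42 of 43 genes in each genotype, all but *Samhd1*, where 8.47% of all genes in control and 9.2% in Notch2tm1.1Ecan cells passed that rule. The TNFα and vehicle libraries did not overlap for any of the 43 genes in either genotype, as for 41.8% and 40.3% of all genes. No gene of the set was called lower, where 20.9% and 21.9% of all genes were. Without control vehicle replicate 4 the counts in control cells were again 43 higher (23.5% of all genes) and 0 lower (21.6%), and the median was 4.96. The largest standard error in control cells, 1.27 for *Ifit1*, was 0.22 without that library. With 1 library left out at a time, 37 of the 43 calls in control cells and 43 of 43 in Notch2tm1.1Ecan cells held in all 8 cases, and the lowest count in control cells was 38. DESeq2 called 26 genes in control cells (21% of all genes) and gave no adjusted p to the other 17. A block for the replicate number, by which no pairing was seen, left 28 (22.2%). The 6 calls in control cells that did not hold with each library left out were *Samhd1*, *Parp14*, *Isg15*, *Oasl2*, *Ifit3* and *Ifit1*, and each of these genes had a rise in every case. Where 3 log2 rises stand together for a gene, they are those in control cells with all libraries, in control cells without control vehicle replicate 4 and in Notch2tm1.1Ecan cells, in that order.

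**Figure D2:**
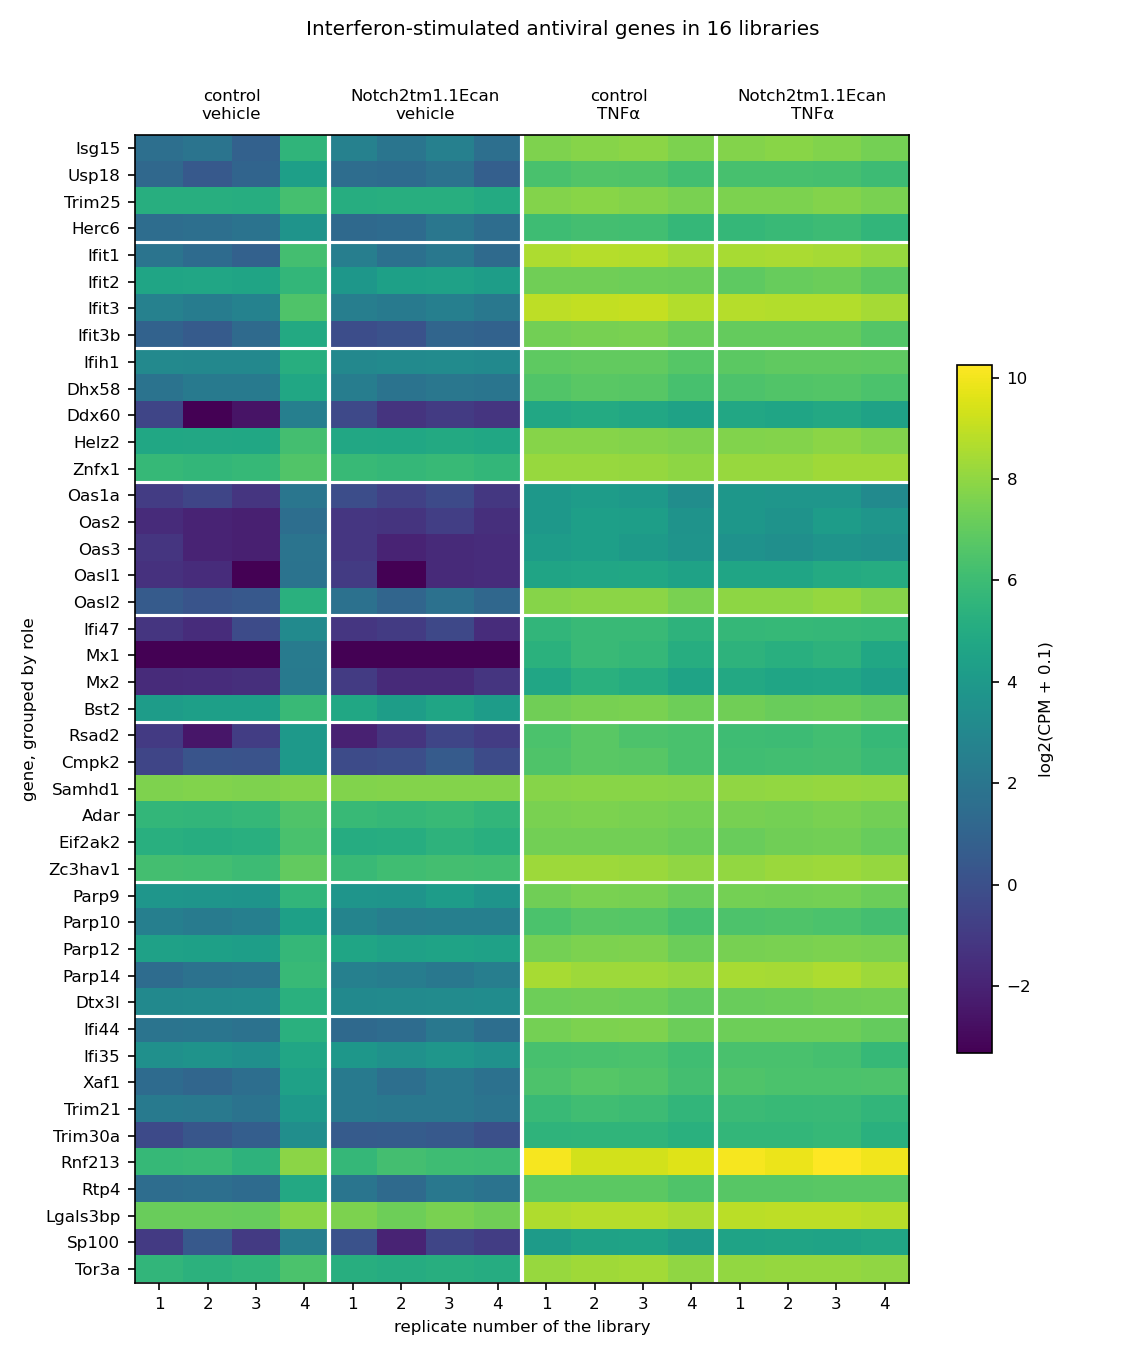
Level of the 43 antiviral genes, as log2(CPM + 0.1) by colour, in the 16 libraries (columns, 4 per group, labelled by replicate number), with genes grouped by role between white lines. The TNFα columns are brighter than the vehicle columns for all genes but *Samhd1*, and the fourth control vehicle column lies between the groups.

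*ISG15 and its conjugation.* ISG15 is a ubiquitin-like protein that is attached to newly made proteins by an enzyme chain ending in HERC6 in the mouse, and USP18 removes it and also restrains the interferon receptor. *Isg15* was at 3.04, 3.58, 1.74 and 47.9 CPM in control cells with vehicle and at 6.13, 3.85, 5.86 and 3.06 in Notch2tm1.1Ecan cells with vehicle. With TNFα it was at 201, 218, 239.8 and 193 CPM in control and 216, 226, 206 and 169 in Notch2tm1.1Ecan cells. Every TNFα library was thus above every vehicle library, the displaced one included. The rise in control cells was 3.89 ± 1.04 (log2, SE; adjusted p = 0.023, n = 4 against 4, edgeR's quasi-likelihood test), and 6.27 ± 0.17 (adjusted p = 4.2e-09) without control vehicle replicate 4, which is 77.2-fold. In Notch2tm1.1Ecan cells it was 5.54 ± 0.21 (adjusted p = 6.7e-08), which is 46.6-fold. Per length of transcript *Isg15* was the most abundant of the 43 genes with TNFα, at 272 CPM per kb in control and 262 in Notch2tm1.1Ecan cells.

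*Usp18* was at 2.27, 1.29, 1.99 and 20.2 CPM in control cells with vehicle and at 2.76, 2.57, 3.42 and 1.63 in Notch2tm1.1Ecan cells with vehicle. With TNFα it reached 82.2, 95.4, 93.2 and 71.4 CPM in control and 79.1, 78.1, 77.5 and 63.5 in Notch2tm1.1Ecan cells. The groups of each genotype did not overlap. The log2 rise was 3.69 ± 0.75 in control cells (adjusted p = 0.0076), 5.49 ± 0.17 without control vehicle replicate 4 and 4.96 ± 0.15 in Notch2tm1.1Ecan cells (adjusted p = 7.2e-14). *Herc6* rose by 3.54 ± 0.48, 4.41 ± 0.15 and 4.25 ± 0.12, and *Trim25*, a ubiquitin ligase that activates the RNA sensor RIG-I, by 2.19 ± 0.31, 2.55 ± 0.07 and 2.52 ± 0.07.

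*IFIT proteins.* These proteins bind foreign RNA and keep it from being translated. The 4 genes of the set lie in a cluster on chromosome 19 (GRCm39), from 34527932 at the start of *Ifit2* to 34632174 at the end of *Ifit1*. The related gene *Ifit1bl2* overlaps the span of *Ifit1* on the opposite strand. *Ifit1* was at 3.70, 2.59, 1.74 and 74.5 CPM in control cells with vehicle and at 5.44, 3.08, 4.20 and 2.51 in Notch2tm1.1Ecan cells with vehicle. With TNFα it was at 383, 426, 415 and 332 CPM in control and 356, 364, 342 and 287 in Notch2tm1.1Ecan cells. The fourth control vehicle library was far above the other vehicle libraries and still below all TNFα libraries. The log2 rise in control cells was 4.21 ± 1.27 (adjusted p = 0.037), and 7.16 ± 0.22 (adjusted p = 4.8e-07) without that library. While control vehicle replicate 4 was kept, leaving out any other single library ended the call of *Ifit1* in control cells, with adjusted p between 0.063 and 0.083 and rises of 3.83 to 4.27. In Notch2tm1.1Ecan cells the rise was 6.58 ± 0.19 (adjusted p = 2.5e-09). *Ifit3* rose by 4.14 ± 1.13, 6.36 ± 0.11 and 6.37 ± 0.10, and *Ifit3b* by 4.19 ± 0.93, 6.46 ± 0.16 and 6.37 ± 0.17. The call of *Ifit3* in control cells was likewise kept in 2 of 8 cases with 1 library left out, without control vehicle replicate 4 and without control TNFα replicate 4. *Ifit2* started higher, at 24.2 to 51.1 CPM in control cells with vehicle, and rose less, by 2.28 ± 0.27, 2.61 ± 0.06 and 2.78 ± 0.11.

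*Helicases and RNA sensors.* IFIH1 (MDA5) recognizes long double-stranded RNA, DHX58 (LGP2) modulates that recognition, and ZNFX1 binds double-stranded RNA at mitochondria. *Ddx60*, a helicase gene, showed the steepest response of the 5 genes, with log2 rises of 4.02 ± 0.77 in control cells, 6.71 ± 0.38 without control vehicle replicate 4 and 6.05 ± 0.17 in Notch2tm1.1Ecan cells. *Dhx58* rose by 3.26 ± 0.66, 4.52 ± 0.18 and 4.51 ± 0.10, and *Ifih1* by 2.98 ± 0.56, 3.90 ± 0.09 and 3.79 ± 0.08. *Helz2* and *Znfx1* were already at 26.7 CPM or more in every vehicle library and rose less, *Helz2* by 2.47 ± 0.40, 2.99 ± 0.06 and 2.96 ± 0.07 and *Znfx1* by 2.1 ± 0.24, 2.37 ± 0.06 and 2.49 ± 0.07. Exons of *Znfx1* overlap the antisense gene *Zfas1*, and the strand setting of the counting is not given in the sources used here, so that reads of the overlap cannot be told apart.

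*OAS family.* Oligoadenylate synthetases sense double-stranded RNA and make the messenger that activates RNase L, and the OASL proteins are relatives with other antiviral roles. *Oas1a* was at 0.442, 0.609, 0.322 and 3.99 CPM in control cells with vehicle and at 0.827, 0.513, 0.726 and 0.368 in Notch2tm1.1Ecan cells with vehicle. With TNFα it was at 15.1, 18.3, 16.1 and 10.1 CPM in control and 14.4, 14.2, 14.0 and 9.10 in Notch2tm1.1Ecan cells. It had the lowest level per length of the 43 genes with TNFα in both genotypes, at 1.86 and 1.62 CPM per kb. Its log2 rise was 3.43 ± 0.65 in control cells (adjusted p = 0.0054), 5.03 ± 0.30 without control vehicle replicate 4 and 4.61 ± 0.21 in Notch2tm1.1Ecan cells (adjusted p = 1.4e-16).

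*Oasl1*, whose product is known in the mouse to repress translation of *Irf7*, had the largest log2 rise of the family in both genotypes when all libraries were used. It was at 0.276, 0.228, 0 and 3.57 CPM in control cells with vehicle, 0.413, 0, 0.207 and 0.230 in Notch2tm1.1Ecan cells with vehicle, 24.0, 25.9, 27.2 and 22.9 in control cells with TNFα and 24.9, 25.6, 31.9 and 34.2 in Notch2tm1.1Ecan cells with TNFα. The log2 rise was 4.55 ± 0.67 in control cells (adjusted p = 0.0017), 7.14 ± 0.24 without control vehicle replicate 4 and 7.07 ± 0.24 in Notch2tm1.1Ecan cells (adjusted p = 2.6e-15). *Oasl2* rose by 4.32 ± 1.14, 7.47 ± 0.14 and 6.60 ± 0.11, where the middle value is the largest of the family in control cells without that library. *Oas2* rose by 4.25 ± 0.67, 6.56 ± 0.30 and 5.49 ± 0.21, and *Oas3* by 3.94 ± 0.70, 6.28 ± 0.28 and 5.67 ± 0.22. *Oas3* was at 0.129 to 3.63 CPM in control cells with vehicle and 0.154 to 0.344 in Notch2tm1.1Ecan cells with vehicle.

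*GTPases and membrane restriction.* MX proteins are GTPases that trap viral nucleocapsids, although many laboratory strains of mice, C57BL/6 among them, carry a defective *Mx1*. *Mx1* was not counted in control vehicle replicates 1 to 3 nor in any of the 4 Notch2tm1.1Ecan vehicle libraries, where a count of 0 allows up to 3 counts, and it held 83 counts (4.94 CPM) in control vehicle replicate 4. With TNFα it was at 40.3, 57.9, 52.2 and 35.4 CPM in control and 43.6, 38.4, 44.2 and 27.6 in Notch2tm1.1Ecan cells. The gene was thus off at this depth with vehicle in every library but the displaced one. With each vehicle library set to 3 counts, the TNFα libraries were at least 134-fold higher in Notch2tm1.1Ecan cells, and at least 155-fold higher in control cells without control vehicle replicate 4. With that library the log2 rise in control cells was 5.16 ± 0.82 (adjusted p = 0.0024).

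*Mx2* was at 0.221, 0.228, 0.257 and 4.76 CPM in control cells with vehicle, 0.413, 0.205, 0.207 and 0.322 in Notch2tm1.1Ecan cells with vehicle, 26.5, 39.4, 33.4 and 23.6 in control cells with TNFα and 28.9, 24.8, 26.4 and 20.4 in Notch2tm1.1Ecan cells with TNFα. Its log2 rise was 4.43 ± 0.71 in control (adjusted p = 0.0026), 6.99 ± 0.37 without control vehicle replicate 4 and 6.45 ± 0.18 in Notch2tm1.1Ecan cells. *Ifi47*, which encodes an immunity-related GTPase, was at 0.332, 0.228, 0.772 and 9.11 CPM in control cells with vehicle, 0.344, 0.411, 0.674 and 0.230 in Notch2tm1.1Ecan cells with vehicle, 48.9, 59.4, 59.3 and 44.5 in control cells with TNFα and 52.7, 55.1, 52.3 and 51.6 in Notch2tm1.1Ecan cells with TNFα. It rose by 4.29 ± 0.75 (adjusted p = 0.0038), 6.86 ± 0.24 without control vehicle replicate 4 and 7.12 ± 0.15 in Notch2tm1.1Ecan cells, again with no overlap of the groups. Exons of *Ifi47* share 111 bases with those of *Or2v1* on the same strand. *Bst2*, which encodes the virion tether tetherin and also served here as a marker of plasmacytoid dendritic cells, rose by 2.53 ± 0.44, 3.12 ± 0.08 and 2.72 ± 0.13. Of the other 3 markers of those cells, *Siglech* was at 0 counts in all 16 libraries, *Ccr9* held 2 counts in 1 control TNFα library and none elsewhere, and *Cox6a2* was at 4.09 to 7.40 CPM over all libraries and was not called with TNFα in either genotype.

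**Figure D3:**
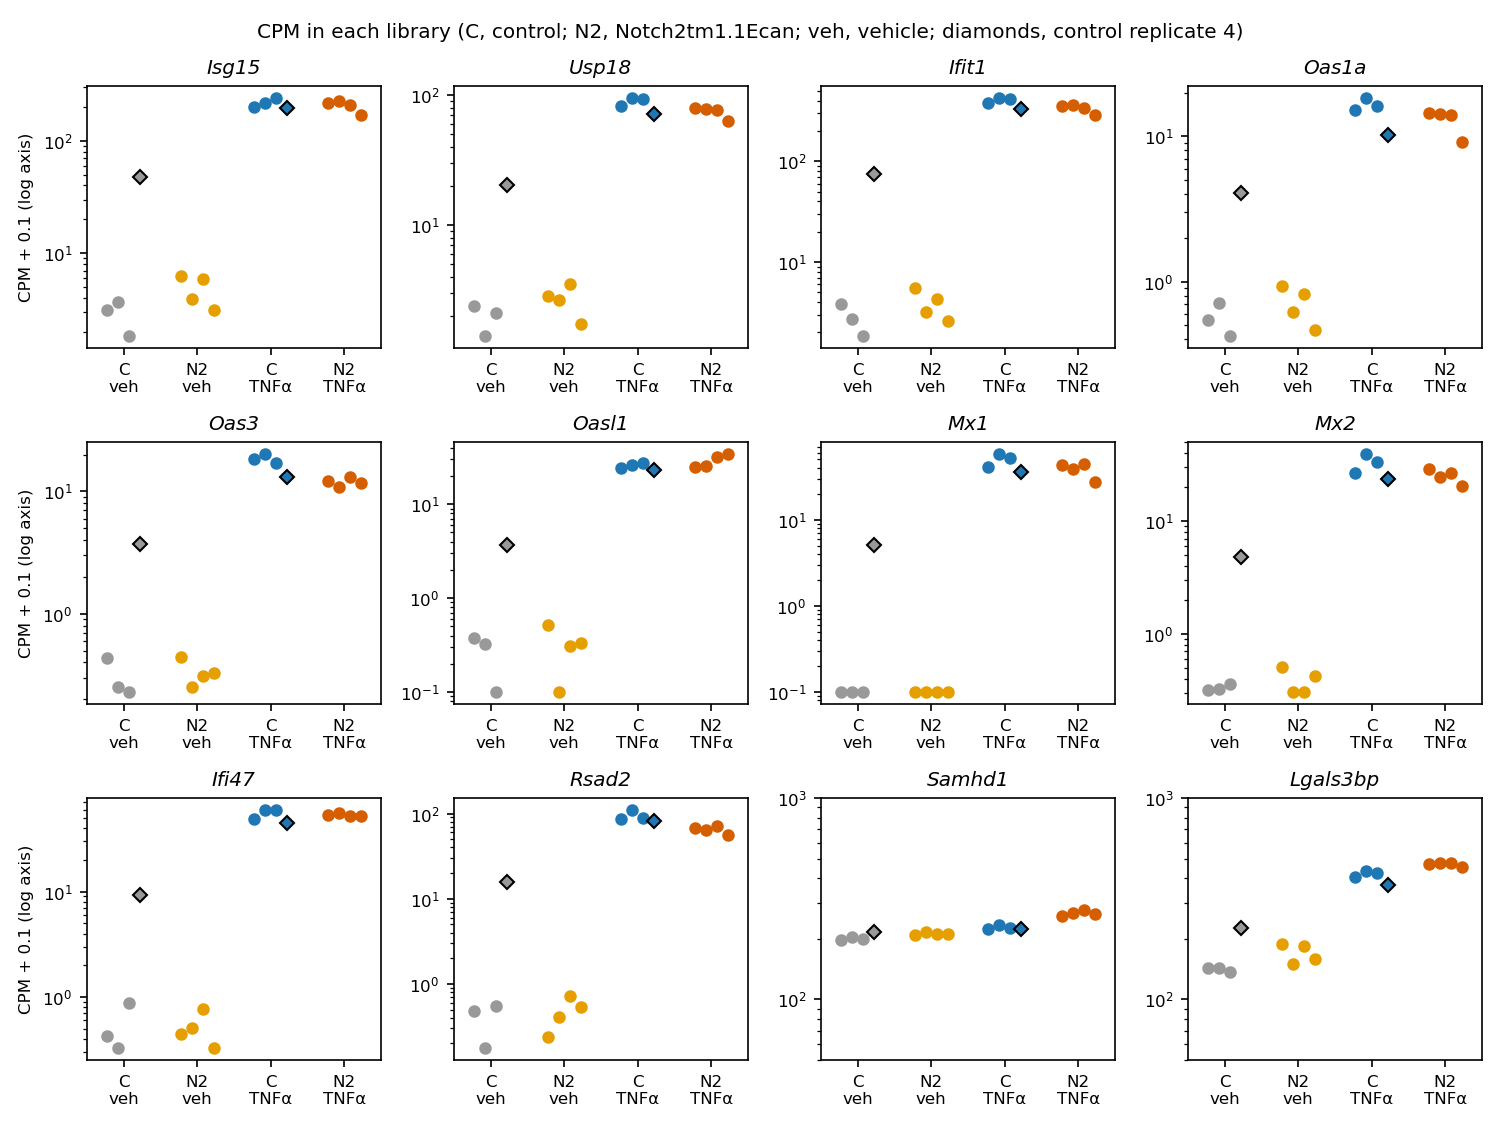
Level of 12 antiviral genes in each of the 16 libraries, as CPM + 0.1 on a log axis, by genotype (C, control; N2, Notch2tm1.1Ecan) and treatment, with the replicate 4 control libraries as diamonds. For each gene the diamond of the control vehicle group lies under all TNFα libraries, and for *Samhd1* the 4 groups lie within a narrow band of 198 to 278 CPM.

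*Nucleotide and RNA enzymes.* RSAD2 (viperin) makes a nucleotide that terminates viral RNA chains, and the neighbouring *Cmpk2* encodes a kinase that supplies its substrate. *Rsad2* (chr12:26492745-26506451) was at 0.387, 0.0761, 0.450 and 15.5 CPM in control cells with vehicle and at 0.138, 0.308, 0.622 and 0.437 in Notch2tm1.1Ecan cells with vehicle. With TNFα it was at 86.7, 110.2, 89.3 and 82.7 CPM in control and 66.7, 63.2, 71.2 and 55.2 in Notch2tm1.1Ecan cells. The log2 rise was 4.43 ± 0.92 in control cells (adjusted p = 0.0082), 8.14 ± 0.24 (282-fold) without control vehicle replicate 4 and 7.31 ± 0.15 (159-fold) in Notch2tm1.1Ecan cells (adjusted p = 1.0e-23). *Cmpk2* (chr12:26519203-26529836) rose by 4.33 ± 0.82, 6.79 ± 0.17 and 6.25 ± 0.13.

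The other enzymes started high and moved less. *Adar*, which edits double-stranded RNA, rose by 1.57 ± 0.24, 1.84 ± 0.06 and 1.70 ± 0.07, *Eif2ak2*, the kinase PKR that halts translation, by 1.72 ± 0.32, 2.12 ± 0.06 and 2.0 ± 0.08, and *Zc3hav1*, which binds CpG-rich viral RNA, by 1.80 ± 0.26, 2.09 ± 0.08 and 2.07 ± 0.07. *Samhd1*, which depletes the nucleotides that retroviruses need, was at 198, 203, 199.9 and 216 CPM in control cells with vehicle, 209, 217, 211 and 212 in Notch2tm1.1Ecan cells with vehicle, 223, 234, 227 and 223 in control cells with TNFα and 260.4, 269, 278 and 266 in Notch2tm1.1Ecan cells with TNFα. It had the smallest rise of the 43 genes in both genotypes, 0.16 ± 0.05 (1.12-fold, adjusted p = 0.011) in control, 0.18 ± 0.05 without control vehicle replicate 4 and 0.34 ± 0.06 (1.27-fold, adjusted p = 1.3e-05) in Notch2tm1.1Ecan cells.

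*PARP family and DTX3L.* PARP9 and DTX3L form a complex that modifies histones, and PARP10, PARP12 and PARP14 transfer ADP-ribose to proteins. *Parp14* rose by 4.20 ± 1.1, 6.62 ± 0.11 and 6.04 ± 0.09, the largest rise of the 5 genes in each, and its call in control cells was kept in 6 of 8 cases with 1 library left out. *Parp9* rose by 2.89 ± 0.51, 3.64 ± 0.10 and 3.54 ± 0.09, and *Dtx3l* by 3.17 ± 0.56, 4.07 ± 0.09 and 4.07 ± 0.08. These are neighbours on opposite strands whose exons overlap by 458 bases, so that reads in the overlap could have been counted for either gene. *Parp10* rose by 3.28 ± 0.49, 4.08 ± 0.13 and 3.85 ± 0.09, and *Parp12* by 2.63 ± 0.38, 3.11 ± 0.11 and 3.02 ± 0.07. Exons of *Parp10* share 205 bases with those of *Plec* on the same strand, so that reads there cannot be told apart by strand.

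*TRIM, nuclear body and other effectors.* All 10 genes were called higher in both genotypes, with median log2 rises of 3.22 in control cells, 4.45 in control cells without control vehicle replicate 4 and 4.30 in Notch2tm1.1Ecan cells. *Ifi44* rose by 3.79 ± 0.88, 5.63 ± 0.12 and 5.60 ± 0.11, *Trim30a* by 3.67 ± 0.65, 5.34 ± 0.15 and 5.42 ± 0.14 and *Xaf1* by 3.57 ± 0.71, 5.14 ± 0.18 and 4.57 ± 0.10. *Rtp4* rose by 3.5 ± 0.79, 5.30 ± 0.12 and 4.95 ± 0.10, and *Sp100*, a component of PML nuclear bodies, by 3.42 ± 0.64, 4.96 ± 0.27 and 5.55 ± 0.19. *Trim21*, a cytosolic antibody receptor, rose by 3.03 ± 0.47, 3.82 ± 0.15 and 3.77 ± 0.10. *Rnf213*, a giant ubiquitin ligase, rose by 2.98 ± 0.68, 3.93 ± 0.27 and 4.04 ± 0.11 and had the highest CPM of the set in all 8 TNFα libraries, with a wide spread from 639 to 1074 in control and from 931 to 1225 in Notch2tm1.1Ecan cells. *Tor3a* rose by 2.42 ± 0.26, 2.70 ± 0.09 and 2.93 ± 0.06, and *Ifi35* by 2.39 ± 0.30, 2.78 ± 0.09 and 2.57 ± 0.11. Exons of *Tor3a* overlap those of *Abl2*, and exons of *Ifi35* those of *Vat1*, on the opposite strand. Exons of *Rtp4* share 1129 bases with those of *Gm45338* on the same strand.

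*Lgals3bp*, which encodes a secreted glycoprotein, was at 143, 144, 136 and 226 CPM in control cells with vehicle and at 189, 151, 184 and 158 in Notch2tm1.1Ecan cells with vehicle. With TNFα it was at 406, 432, 423 and 369 CPM in control and 471, 476, 474 and 453 in Notch2tm1.1Ecan cells. It rose by 1.33 ± 0.19 (adjusted p = 0.0015) in control, 1.54 ± 0.06 without control vehicle replicate 4 and 1.46 ± 0.07 (adjusted p = 3.5e-16) in Notch2tm1.1Ecan cells, the smallest rise after *Samhd1* in each.

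Across the set, the genes lowest with vehicle had the largest fold rises. The 24 genes with a mean under 5 CPM over control vehicle replicates 1 to 3 had a median log2 rise of 6.37 in control cells (without replicate 4) and 5.63 in Notch2tm1.1Ecan cells. The 12 genes at 20 CPM or more had medians of 2.46 and 2.51. These classes and the control rises use the same vehicle libraries, so that a low mean there raises the fold by itself. The Notch2tm1.1Ecan rises use other libraries. The 13 genes with an ISRE core in the listed promoter had median log2 rises of 6.27 in control cells (without control vehicle replicate 4) and 5.54 in Notch2tm1.1Ecan cells, against 3.52 and 3.53 for the 20 genes listed without a match and 5.39 and 4.96 for the 10 genes with no listed promoter. Both are descriptions, and genes such as *Oasl1* and *Cmpk2* rose steeply without a match in the window searched. The promoter groups were not matched for their level with vehicle.

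**Figure D4:**
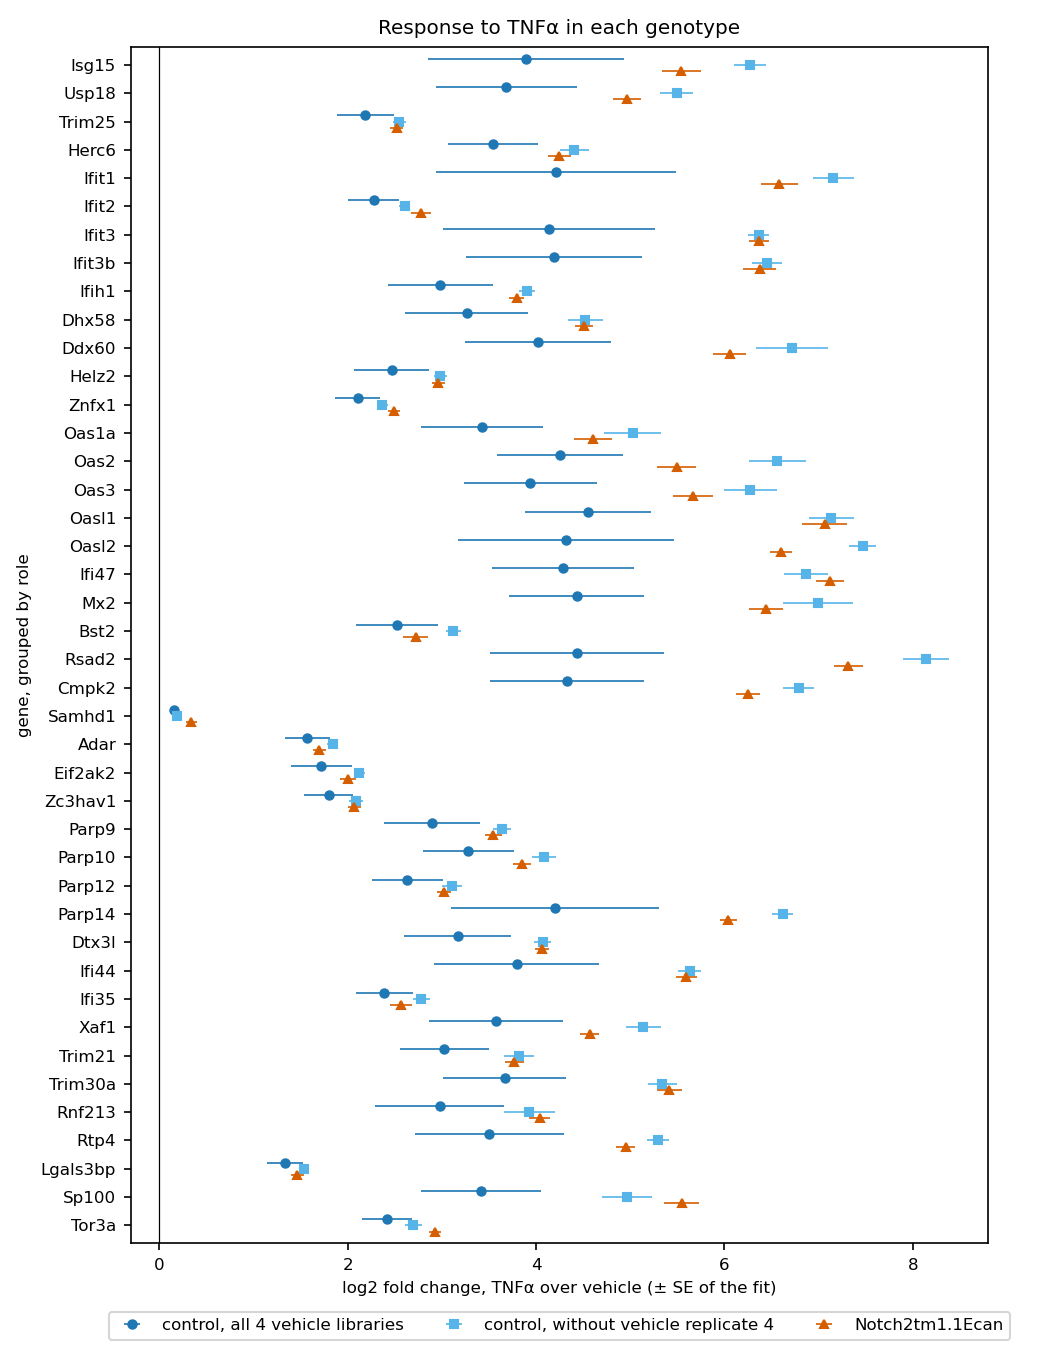
Log2 fold change of TNFα over vehicle for 42 antiviral genes (all but *Mx1*, which had 0 counts in most vehicle libraries), with the SE of the fit, in control cells with all vehicle libraries (circles), in control cells without vehicle replicate 4 (squares) and in Notch2tm1.1Ecan cells (triangles). The circles lie left of the squares and have the widest bars, reaching 1.27 for *Ifit1*.

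The genes upstream of the set were examined as lists. For comparison, 23.3% of all genes were called higher and 20.9% lower with TNFα in control cells, and 22.6% and 21.9% in Notch2tm1.1Ecan cells. Without control vehicle replicate 4 the shares in control cells were 23.5% and 21.6%. Of 21 interferon genes, 19 had 0 counts in all 16 libraries, including every interferon α gene listed and *Ifng*. *Ifnb1* (interferon β) held 2, 2, 3 and 7 counts in the control TNFα libraries, 3, 0, 3 and 0 in the Notch2tm1.1Ecan TNFα libraries, 1 count in control vehicle replicate 4 and 0 in the other 7 vehicle libraries. It was called higher in control cells (adjusted p = 0.021) and was too low to be tested in Notch2tm1.1Ecan cells, and no fold is given at these counts. Of 9 receptor and kinase genes, 7 were called higher and 1 lower with TNFα in each genotype. *Ifnar2* rose by 0.99 ± 0.07, 1.03 ± 0.07 and 1.41 ± 0.09 and *Ifnar1* by 0.58 ± 0.06, 0.59 ± 0.06 and 0.71 ± 0.06 on the log2 scale, while *Jak1* had changes of -0.21 ± 0.05, -0.20 ± 0.05 and -0.23 ± 0.06. Of 8 transcription factor genes, 6 were called higher in each genotype, among them *Irf5*, whereas *Irf3* and *Irf8* were not called. *Stat2* rose by 2.76 ± 0.49, 3.42 ± 0.12 and 3.17 ± 0.08, *Irf9* by 2.0 ± 0.34, 2.43 ± 0.09 and 2.16 ± 0.07, *Irf1* by 3.28 ± 0.51, 3.98 ± 0.10 and 4.16 ± 0.08 and *Irf7* by 3.73 ± 0.83, 5.42 ± 0.21 and 5.22 ± 0.13. Of 36 further interferon-stimulated genes, 36 were called higher in each genotype (35 in control cells without control vehicle replicate 4), and so were 12 of 12 NF-κB targets. Of 10 further genes of nucleic acid sensing 7 were called higher in each genotype, with 1 lower in control cells, and 9 higher and 1 lower in control cells without control vehicle replicate 4. Of 5 feedback genes 2 were called higher in each genotype, *Socs1* among them, and *Socs3* had changes of -1.40 ± 0.11, -1.45 ± 0.12 and -1.18 ± 0.10. In Notch2tm1.1Ecan cells the rest of this list was called lower, *Socs3*, *Ptpn11* (-0.32 ± 0.06) and *Pias1* (-0.21 ± 0.07).

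With vehicle, no antiviral gene was called between Notch2tm1.1Ecan and control cells when all libraries were used, where 6.19% of 19432 genes were called higher and 4.35% lower. The smallest adjusted p was 0.18, and at an unadjusted p under 0.05 there were 0 higher and 2 lower genes. Of all 19432 genes tested, 4226 had an unadjusted p under 0.05 in either direction. The groups did not overlap for 2 genes, where 16.2% of all genes did not. The median log2 difference was -1.24 and 41 of 43 were negative, but this direction rested on control vehicle replicate 4. Without it the median was 0.11, 30 of 42 tested genes were positive, and 3 genes were called higher (5.78% of all genes) and 2 lower (4.59%). The 5 genes are named after their values were seen. *Oasl2* was at 1.38, 1.07 and 1.22 CPM in the remaining control libraries and 3.31, 2.05, 3.22 and 2.23 in Notch2tm1.1Ecan libraries, a log2 difference of 1.09 ± 0.26 (adjusted p = 0.0055). *Parp14* was at 2.71, 3.35 and 3.60 CPM against 5.92, 5.39, 4.31 and 5.59, a difference of 0.73 ± 0.17 (adjusted p = 0.0049), and *Lgals3bp* differed by 0.27 ± 0.07 (adjusted p = 0.021). *Tor3a* was lower, at 36.8, 34.2, 36.5 and 34.2 CPM in Notch2tm1.1Ecan against 48.8, 42.9 and 46.5 in control libraries (-0.39 ± 0.07, adjusted p = 0.00022), and so was *Ifit2* (-0.41 ± 0.10, adjusted p = 0.013). *Isg15*, *Ifit1*, *Usp18* and *Rsad2* had log2 differences of 0.71, 0.42, 0.40 and 0.31 without that library and were not called.

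With TNFα, the set reached nearly the same level in both genotypes, with a few modest differences. Of the 43 genes, 2 were called higher (5.63% of 19227 genes) and 7 lower (4.31%) in Notch2tm1.1Ecan cells, none by 2-fold (1.02% of all genes higher and 0.395% lower), and the median log2 difference was -0.06. Without control TNFα replicate 4 the median was -0.14. The fit to all 16 libraries shares 1 estimate of the spread with the vehicle libraries. It called 1 gene higher, *Samhd1* (5.36% of all genes), and 0 lower (4.54%), so that all 7 lower calls depend on the libraries in the fit. On the TNFα libraries alone, DESeq2, RLE and a block for the replicate number called the same 7 genes lower. Over all 19227 genes they called 779, 812 and 748 lower. The genes called lower were *Rsad2* and its neighbour *Cmpk2*, *Oas3*, *Ifit3b*, *Ifit3*, *Ifit2* and *Ifi44*. The Notch2tm1.1Ecan libraries of *Rsad2* (55.2 to 71.2 CPM) were all below the control libraries (82.7 to 110.2 CPM), a difference of -0.50 ± 0.08 (adjusted p = 0.00028), and -0.56 ± 0.08 without control TNFα replicate 4. *Cmpk2* was at 69.4, 72.0, 74.4 and 61.8 CPM against 93.0, 109, 104 and 83.3 in control (-0.46 ± 0.07, adjusted p = 7.3e-05), likewise without overlap, and without control TNFα replicate 4 the difference was -0.55 ± 0.07. *Oas3* was at 12.1, 10.7, 13.0 and 11.6 CPM against 18.4, 20.1, 17.1 and 13.0 (-0.52 ± 0.12, adjusted p = 0.0049), where the lowest control library, replicate 4, lay within the Notch2tm1.1Ecan range. Without that library the difference of *Oas3* was -0.65 ± 0.11. *Ifit3b* differed by -0.39 ± 0.08 (-0.48 ± 0.07 without control TNFα replicate 4), *Ifi44* by -0.26 ± 0.07 (-0.35 ± 0.06 without control TNFα replicate 4), *Ifit3* by -0.25 ± 0.07 (-0.33 ± 0.06 without control TNFα replicate 4) and *Ifit2* by -0.23 ± 0.07 (-0.27 ± 0.07 without control TNFα replicate 4). *Ifit1*, of the same cluster, had a difference of -0.19 ± 0.08 that was not called (adjusted p = 0.13), and without control TNFα replicate 4 one of -0.27 ± 0.07 that was (adjusted p = 0.0049).

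*Samhd1* was higher in Notch2tm1.1Ecan cells by 0.26 ± 0.06 (adjusted p = 0.0029), with 260.4 to 278 CPM against 223 to 234, and *Lgals3bp* by 0.22 ± 0.06 (adjusted p = 0.020), with 453 to 476 CPM against 369 to 432. Without control TNFα replicate 4 these differences were 0.23 ± 0.06 (adjusted p = 0.0057) and 0.16 ± 0.06 (adjusted p = 0.074). *Isg15* (-0.04 ± 0.07), *Usp18* (-0.17 ± 0.08), *Oas1a* (-0.12 ± 0.16) and *Mx1* (-0.22 ± 0.19) were not called, and their libraries overlapped between genotypes. For 3 of the pathway lists the calls are given, where 5.63% of all genes were called higher and 4.31% lower. In Notch2tm1.1Ecan cells 4 of 9 receptor and kinase genes, 6 of 36 further interferon-stimulated genes and 0 of 8 transcription factor genes were called higher. None of these 3 lists held a gene called lower, and the other pathway lists are not reported here for this comparison. The groups did not overlap for 5 of the 43 genes, where 14.8% of all genes did not. Of the 9 calls, 5 held with each library left out in turn, namely *Cmpk2*, *Rsad2*, *Oas3*, *Ifit3b* and *Samhd1*. The number called lower was 13 without control TNFα replicate 4 (5.18% of all genes), 4 without control TNFα replicate 2 (3.84%) and 4 without Notch2tm1.1Ecan TNFα replicate 4 (4.23%), the shallowest library. The number called higher was 1 without control TNFα replicate 4 (5.86% of all genes), Notch2tm1.1Ecan TNFα replicate 2 (4.43%) or Notch2tm1.1Ecan TNFα replicate 3 (4.29%).

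**Figure D5:**
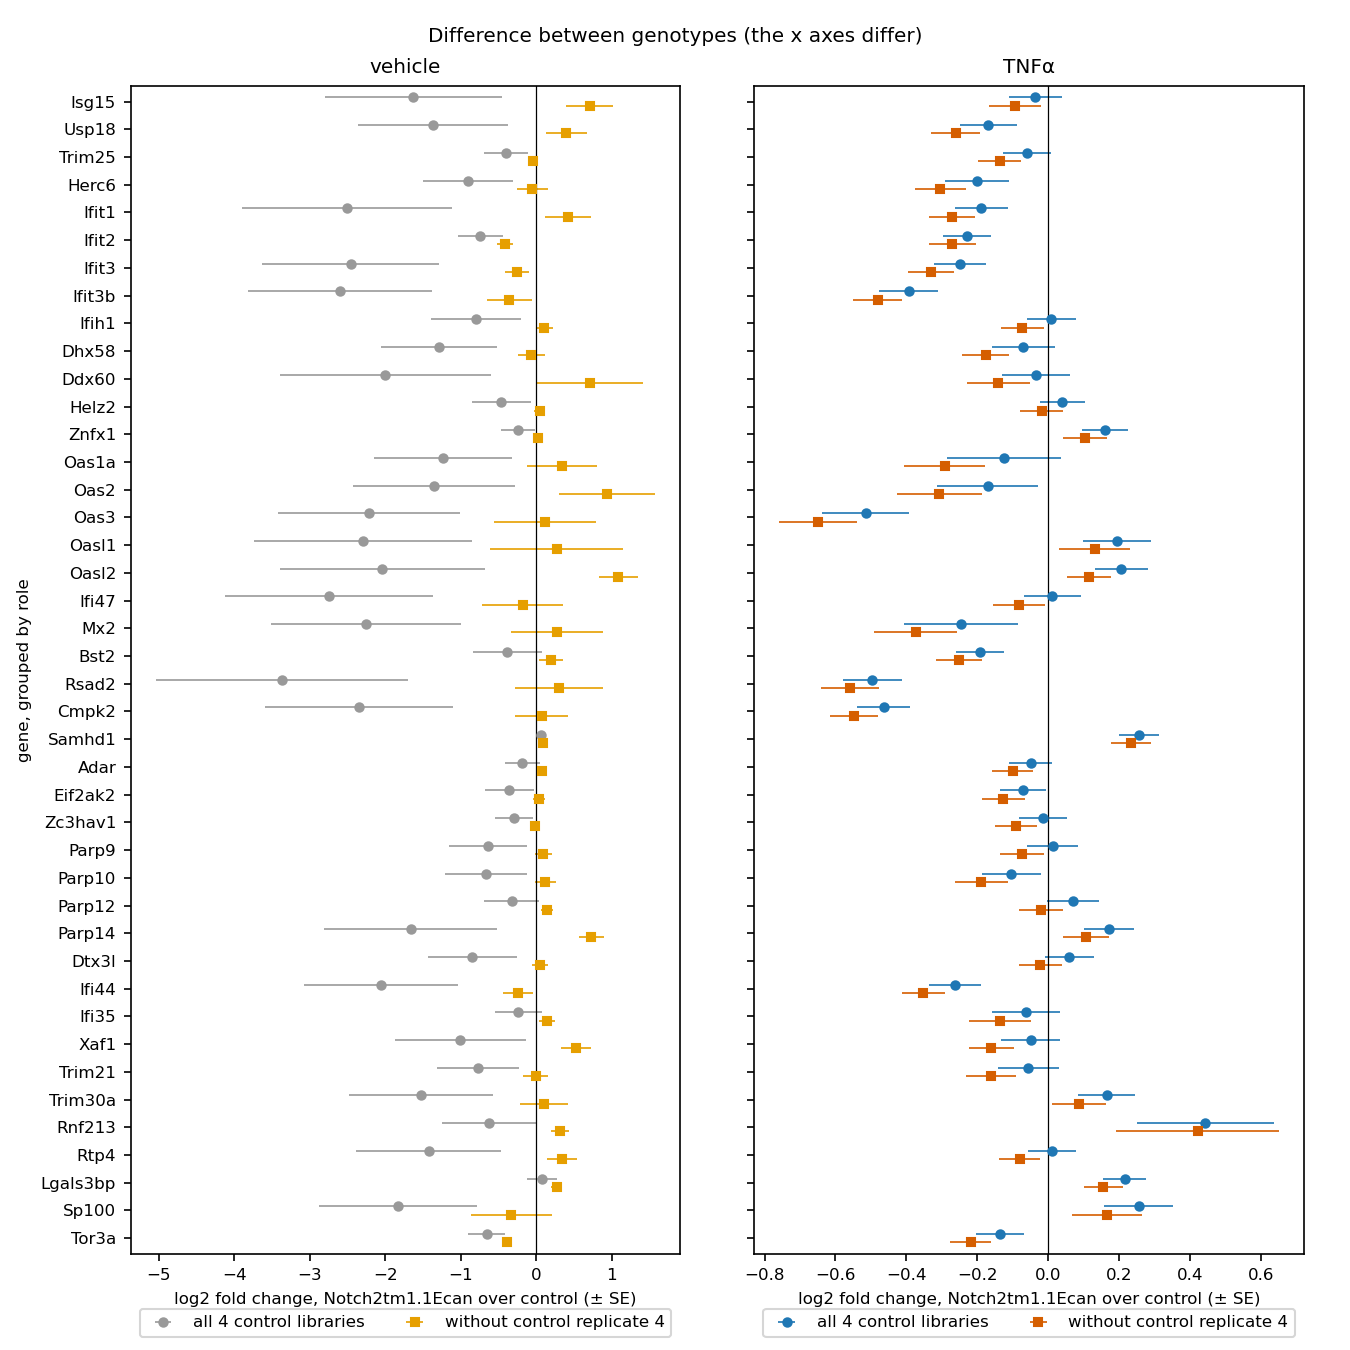
Log2 fold change of Notch2tm1.1Ecan over control cells with the SE of the fit for 42 antiviral genes (all but *Mx1*), with vehicle (left) and with TNFα (right, on a narrower axis), using all control libraries (circles) or leaving out control replicate 4 of that treatment (squares). With vehicle the circles lie mostly left of 0 and the squares near it, and with TNFα the points lie between -0.65 and 0.44.

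Markers of other cell types differed between the genotypes as well. The summed level of 12 macrophage markers was 71.4 to 77.9 CPM in control and 132 to 153 in Notch2tm1.1Ecan cells with vehicle, and 85.7 to 100.2 and 177 to 200.4 with TNFα, with 9 of 12 called higher with vehicle and 10 of 12 with TNFα. The 10 chondrocyte markers were called lower with either treatment, summing to 49373 to 53212 CPM in control and 30893 to 35782 in Notch2tm1.1Ecan cells with vehicle. Their part in the differences of the antiviral genes was not tested, and in these bulk cultures fewer cells of a type and less RNA per cell cannot be told apart. Of 5 endothelial markers 3 were called higher with either treatment, and of 6 fibroblast and perichondrium markers 4 with vehicle and 5 with TNFα. Over all genes tested, 6.19% were called higher and 4.35% lower with vehicle, and 5.63% and 4.31% with TNFα. Of 6 T and NK cell markers 3 were at 0 counts in all libraries.

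The genotype by TNFα interaction asks whether the response differed between genotypes. None of the 43 genes was called by edgeR's quasi-likelihood test, where 0.267% of 21321 genes were called positive and 0.206% negative, and the smallest adjusted p was 0.42. At an unadjusted p under 0.05 there were 4 positive genes and 0 negative, and DESeq2 called 1 gene, *Mx1*, which has vehicle counts in 1 library. Of all 21321 genes, 1856 had an unadjusted p under 0.05 in either direction, and DESeq2 called 127 positive and 79 negative. With all libraries the interaction was positive for 43 of 43 genes, with a median of 1.18. Without control vehicle replicate 4 it was positive for 8 and negative for 35, with a median of -0.12, a smallest adjusted p of 0.11 and no call, where 0.194% of all genes were called positive and 0.288% negative, and at an unadjusted p under 0.05 there were 1 positive and 4 negative genes. Of all 21153 genes tested without that library, 1791 had an unadjusted p under 0.05 in either direction. *Isg15* changed from 1.64 ± 1.04 to -0.73 ± 0.35, *Ifit1* from 2.35 ± 1.25 to -0.58 ± 0.36, *Usp18* from 1.28 ± 0.86 to -0.54 ± 0.32 and *Parp14* from 1.83 ± 1.04 to -0.59 ± 0.16. Of the 9 receptor and kinase genes, *Jak2* was called, with an interaction of 0.51 ± 0.10 (adjusted p = 0.0054) and 0.40 ± 0.09 (adjusted p = 0.018) without that library.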

How the data were processed

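RNA-Seq of 16 libraries, 4 per group, was analyzed. The authors trimmed the reads, mapped them to GRCm39 and counted them with htseq-count, and the deposited values are raw counts per Ensembl gene, 1 file per library, with no normalization. The submitters' processing notes name HISAT2 2.1.0 and an earlier build, whereas the study's methods name GRCm39. Names and positions were taken from GENCODE M39 (GRCm39). Entries that name no gene (8.81 to 12.1% of a library) were left out.

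Counts were tested with edgeR 4.0.16 in R 4.3.3 (quasi-likelihood, robust, TMM, Benjamini-Hochberg adjustment over all genes tested). Genes needed 10 counts over the compared libraries, 8 for a 2-group comparison and 16 for the interaction. The pipeline was tested on simulated data. CPM used TMM-scaled sizes, and the floor of 3 counts covers counting error only. The labels do not say whether replicates are separate cultures from separate mice, so p-values measure the spread between these libraries. Values in every library are given for *Isg15*, *Ifit1*, *Oas1a*, *Mx1*, *Rsad2*, *Usp18* and, in each comparison of 2 groups, for the 4 largest rises and 2 largest falls among called members with a mean of 1 CPM or more. Other genes are given by fold change, except where said, and except *Cmpk2*, which was chosen after its values were seen. So were *Jak1*, *Jak2*, *Irf5*, *Socs1*, *Socs3*, *Ptpn11* and *Pias1* among the pathway genes. Values of 1 gene of the transcription factor list are not reported here. The genes and lists were chosen with earlier results of these data known. Alternatives were DESeq2 1.42.0, RLE, filterByExpr, no filter beyond 1 count, fitting all 16 libraries together, a block for the replicate number, an adjusted p under 0.1, a 2-fold cutoff, and leaving out libraries. Figures were drawn with matplotlib 3.10.9.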

Additional observations from a re-analysis of the deposited data

Results flagged for a closer look

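Groups of 4 libraries were examined over 12 genes and the summed level of the set for a library far from the other 3. The rule flags about 1 in 20 independent groups by chance. These groups share libraries and genes that move together, so that rate does not apply to them. Such a library was found in 15 of 51 groups. Of these, 12 were control vehicle replicate 4, the displaced library: *Isg15* at 47.9 CPM, *Ifit1* at 74.5, *Oas1a* at 3.99, *Mx1* at 4.94, *Rsad2* at 15.5, *Usp18* at 20.2, *Oasl1* at 3.57, *Mx2* at 4.76, *Ifi47* at 9.11, *Oas3* at 3.63, *Lgals3bp* at 226 and the summed level at 2246 CPM, each above the other 3 libraries. The summed level of control TNFα replicate 4, at 6303 CPM, was below the other 3 libraries of that group. In Notch2tm1.1Ecan TNFα replicate 4, the shallowest library, *Oas1a* at 9.10 and *Usp18* at 63.5 CPM were below the other 3. The rise of *Jak2* with TNFα differed between the genotypes by the interaction test, by 0.51 on the log2 scale, with a larger rise in Notch2tm1.1Ecan cells.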

How the results depend on the processing

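The rise of 43 genes with TNFα in Notch2tm1.1Ecan cells was called under every alternative, except *Samhd1* under the 2-fold cutoff (42 genes). In control cells 26 genes were called with DESeq2, which gave no adjusted p to the other 17, and 38 to 43 with 1 library left out. No pairing by replicate number was seen (correlations of deviations -0.051 to 0.041 for the same number and -0.059 to 0.043 for other numbers). This check covers all genes, low counts included, and cannot show that the samples were unpaired. With the replicate number as a block 28 genes were called higher in control cells, 1 lower (*Mx1*) between genotypes with vehicle, and 2 higher and 7 lower with TNFα. Between genotypes that block called 881 of all 19432 genes lower with vehicle, and 993 higher and 748 lower of 19227 with TNFα. Between genotypes with vehicle, 1 gene (*Tor3a*) was called lower with DESeq2 and 1 with the fit to all 16 libraries, and leaving out 1 library gave 0 to 3 called higher and 0 to 2 lower. Of all 19432 genes, DESeq2 called 946 lower in that comparison and the fit to all 16 libraries 833. With TNFα, the fit to all 16 libraries called 1 gene higher and 0 lower, the 2-fold cutoff 0 and 0, and leaving out 1 library 1 to 3 higher and 4 to 13 lower. For the interaction, DESeq2 called 1 gene positive, and leaving out both control replicate 4 libraries gave 1 negative (*Oasl2*). Of all genes, DESeq2 called 127 of 21321 positive, and without both of those libraries 58 of 20955 were called negative. The cause of these changes was not tested.

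Signs reversed as follows, the positive end of the vehicle differences and the negative end of the interactions being the values without control vehicle replicate 4. With 1 library left out, the vehicle difference between genotypes ranged from -1.55 to 0.11 for the median, -2.0 to 0.71 for *Isg15*, -2.90 to 0.42 for *Ifit1*, -1.69 to 0.40 for *Usp18*, -3.77 to 0.31 for *Rsad2*, -2.42 to 1.09 for *Oasl2* and -2.03 to 0.73 for *Parp14*. The interaction ranged from -0.12 to 1.5 for the median, -0.59 to 2.2 for *Parp14*, -0.73 to 2.0 for *Isg15*, -0.58 to 2.73 for *Ifit1* and -0.54 to 1.58 for *Usp18*, and without both control replicate 4 libraries the values were -0.16, -0.62, -0.76, -0.63 and -0.60. With TNFα, *Isg15* ranged from -0.096 to 0.024 between genotypes. Depth limits *Mx1* with vehicle and *Ifnb1*, which were at or near 0 counts.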
